A study of Mus musculus with 20 samples.

Results

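Neurosphere cultures from wild-type mice were compared with ganglia of wild-type mice. The comparison rests on 6 of the 20 arrays of the study, which were chosen by their titles alone. They were 2 neurosphere arrays (replicates 1 and 2) and 4 ganglion arrays (replicates 1 to 4). Both groups carry no transgene, and the labels give the genetic background 129+Ter/SvJcl for them. The rest of the study concerns a MYCN transgene, which gives mice tumors of the sympathetic nervous system that model neuroblastoma. From it, 2 tumorsphere cultures and 4 tumors of mice hemizygous for the transgene (mixed 129+Ter/SvJcl background) are used as a second pair of a sphere culture and a tissue. The other arrays are of ganglia, tumors and Mdk-knockout tumors of mice homozygous for the transgene. They enter the estimate of spread, the filter and the choice of probe sets. The labels name neither the organ the neurospheres were grown from, the culture medium and passage, nor the position of the ganglia and the age of the mice. Nor do they say that replicates came from different animals or cultures. The p-values rest on the spread between replicates over all 20 arrays, not over the 6 compared arrays alone. That spread may be technical, and the p-values speak for the measured samples only.

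Neurospheres are floating clusters that neural stem and progenitor cells form in medium with growth factors and without serum. Such cells depend on EGF and FGF receptors, on Notch signalling that holds them undifferentiated, and on Sox and bHLH transcription factors that set the choice between neurons, astrocytes and oligodendrocytes. Sympathetic ganglia hold noradrenergic neurons that arise from the neural crest. Satellite glia, Schwann cells, fibroblasts, vessels and resident macrophages surround these neurons. Noradrenaline is made from tyrosine by Th, Ddc and Dbh, is loaded into vesicles by Slc18a2 and is taken back into the neuron by Slc6a2.

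Values are probe set intensities on Affymetrix Mouse Genome 430 2.0 arrays, which the authors had scaled so that every array has the same trimmed mean. They are comparable between arrays for 1 probe set, but not between genes. The 40th percentile of an array lay at an intensity of 13.6 and 8.58 on the neurosphere arrays and at 11.2 to 15.8 on the ganglion arrays, and values near or under that level have no order. Log2 fold changes are on log2(intensity + 16), which understates the change of genes near that level, and are given with their standard error. Every adjusted p is from limma over the 15132 genes tested, with a threshold of 0.05.

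Some arrays stood apart in ways the groups do not explain. The highest intensity was 13238 on neurosphere 1, 17949 on ganglion 3 and 12635 on ganglion 4, against 5113 to 6997 on the other 17 arrays. Neurosphere 1 correlated with neurosphere 2 at r = 0.94 across genes, and with ganglia 3 and 4 (0.82 and 0.83) more closely than with ganglia 1 and 2 (0.77 each). GAPDH control probe sets had a 3'/5' ratio of 3.37 and 11.5 in neurospheres and 2.56 to 4.13 in WT ganglia; for actin it was 7.77 and 3.78 in neurospheres and 4.36 to 9.14 in WT ganglia. Between the neurospheres, 191 genes differed by over 4-fold, against 55 between ganglia 1 and 2, 7 between ganglia 3 and 4 and 284 to 604 across those pairs. The part of these differences in the results was not tested.

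Of the 15132 genes, 2540 were higher in WT neurospheres than in WT ganglia (16.8%) and 3394 were lower (22.4%). The median log2 fold change over all genes was -0.12. Median centring of the arrays moved it to -0.01, with 2872 genes higher and 2825 lower. Larger changes ran mostly downwards: 31 of the called genes were over 16-fold higher and 141 were over 16-fold lower. The count fell to 2813 when only these 6 arrays entered the fit, and to 4438 without neurosphere 2. Neurosphere 1 against ganglia 3 and 4, the arrays with the higher maxima, gave 5069 genes, and neurosphere 2 against ganglia 1 and 2 gave 6902.

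Most of the 12 largest increases were in genes of neural progenitors and central glia. Slc1a3, the glutamate transporter of radial glia and astrocytes, read 2179 and 2351 in neurospheres, against 5.43, 15.7, 1.79 and 3.08 in ganglia (log2 fold change 6.70 ± 0.29, adjusted p = 7.4e-12). Olig1, a bHLH factor of the oligodendrocyte lineage, read 3563 and 3539.5 in neurospheres, against 37.0, 99.2, 4.02 and 6.76 in ganglia (log2 fold change 6.45 ± 0.46, adjusted p = 4.1e-09). Its relative Olig2 read 469.5 and 988 in neurospheres, against 0.249, 0.431, 0.409 and 1.12 in ganglia (log2 fold change 5.40 ± 0.21, adjusted p = 2.3e-12). For all 3 genes the lowest neurosphere value was far above the highest ganglion value. Zic1, a zinc finger factor of the dorsal neural tube, reached 2028 and 1043 in neurospheres and 0.311 to 6.54 in ganglia (log2 fold change 6.31 ± 0.25, adjusted p = 1.8e-12). The remaining members were Rfx4, Pou3f3, Sall3, Gpm6a, Hes5, Lratd1, Ncan and Mlc1, with log2 fold changes between 4.97 and 5.71. Rfx4, Pou3f3 and Sall3 encode transcription factors of the developing brain, Gpm6a a neural membrane glycoprotein, Ncan the proteoglycan neurocan and Mlc1 an astrocyte membrane protein.

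The 12 largest decreases were led by the noradrenergic neuron. Slc6a2, the noradrenaline transporter, read 13.4 and 1.07 in neurospheres, against 4146, 4179, 9832 and 7779 in ganglia (log2 fold change -8.08 ± 0.76, adjusted p = 1.3e-07). Ddc, the aromatic amino acid decarboxylase, read 10.2 and 10.6 in neurospheres, against 4741, 4086, 9469 and 7488 in ganglia (log2 fold change -7.85 ± 0.25, adjusted p = 3.2e-13). Npy, a peptide co-transmitter of sympathetic neurons, read 16.3 and 2.64 in neurospheres, against 3908, 3644, 4214 and 3059 in ganglia (log2 fold change -7.24 ± 0.54, adjusted p = 7.6e-09). In each case both neurosphere arrays lay near or below the 40th percentile, far under every ganglion. Cyb561 (cytochrome b561 of catecholamine vesicles), Sncg (gamma-synuclein), Prph (the intermediate filament peripherin), Slc18a2, Isl1 and Hand2 had log2 fold changes from -7.23 to -6.43. The other 3 of the 12 were Fabp4, a fatty acid binding protein of adipocytes, with -6.83, the tetraspanin gene Tspan8 with -6.57 and the transporter gene Abca8a with -6.54. In these bulk samples, fewer cells of a type and less RNA per cell cannot be told apart, here or in any later result.

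**Figure D1:**
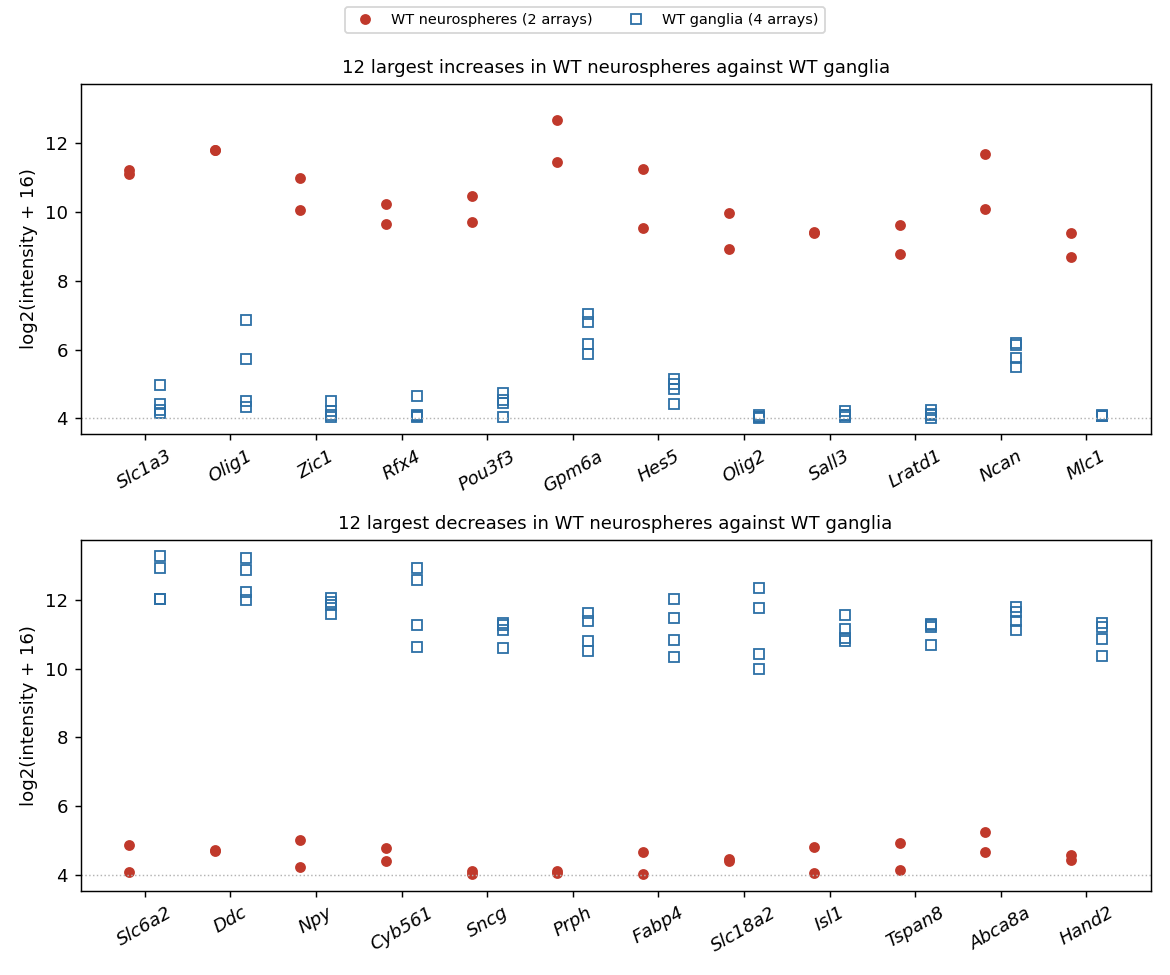
Log2(intensity + 16) of the 12 genes with the largest increase (upper panel) and the 12 with the largest decrease (lower panel) in WT neurospheres against WT ganglia, 1 point per array. Red circles are the 2 neurosphere arrays, blue squares the 4 ganglion arrays, and the dotted line marks an intensity of 0; the groups overlap for none of the 24 genes, since the choice required this.

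Members of the neural stem and radial glia list were mostly higher in neurospheres: 17 of 26 tested rose and 2 fell, with a median log2 fold change of 1.76. Sox2, which maintains neural stem cells, read 3783 and 3296 in neurospheres, against 100.2, 71.3, 195 and 138 in ganglia (log2 fold change 4.72 ± 0.26, adjusted p = 1.9e-10). Sox9, a factor of glial fate, read 586 and 543 in neurospheres, against 11.4, 9.71, 42.7 and 24.0 in ganglia (log2 fold change 4.02 ± 0.24, adjusted p = 5.3e-10). Both neurosphere arrays were above every ganglion for both genes, though Sox2 in the ganglia was itself over the 40th percentile. Msi1, an RNA-binding protein of progenitors, had a log2 fold change of 1.35 (adjusted p = 0.0016).

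Not every stem cell marker moved in this way. Prom1, the gene of the stem cell surface protein CD133, was lower, with 633 and 395 in neurospheres, against 974, 782, 991 and 1204 in ganglia (log2 fold change -0.94 ± 0.25, adjusted p = 0.0051); it was named after its values were seen, and its call was lost without neurosphere 2. The probe set used for Nes, the intermediate filament nestin, read 58.1 and 51.0 in neurospheres, against 44.5, 64.4, 41.4 and 43.3 in ganglia, and did not pass (adjusted p = 0.59). A second Nes probe set read 104 and 134 in neurospheres, against 4.33 to 11.4 in ganglia, a log2 fold change of 2.50. For Egfr, the EGF receptor gene, the probe set used gave 0.99 (adjusted p = 6.4e-04). Another Egfr probe set read 1095 and 1008 in neurospheres, against 48.6 to 64.7 in ganglia. The values of Nes and Egfr thus depended on the probe set: as the median of its probe sets Nes passed and Egfr did not. Nr2e1, a nuclear receptor of adult neural stem cells, stayed below the filter and was not tested.

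The oligodendrocyte lineage list had 12 of 20 tested members higher and 2 lower, with a median of 1.67. Its progenitor genes were among those that rose. Pdgfra, the receptor by which these progenitors are usually recognized, read 1153 and 516 in neurospheres, against 247, 238, 163 and 207 in ganglia (log2 fold change 1.79 ± 0.30, adjusted p = 1.1e-04). Gpr17, a receptor of progenitors about to differentiate, read 221 and 149.9 in neurospheres, against 0.734 to 2.47 in ganglia (log2 fold change 3.51 ± 0.16, adjusted p = 1.4e-11). The proteoglycan gene Bcan (brevican) had a log2 fold change of 4.16 (adjusted p = 3.1e-11). Cspg4, the gene of the NG2 proteoglycan, did not pass, with 0.46 (adjusted p = 0.16). Its other probe set read 122 and 265 in neurospheres, against 28.1 to 65.3 in ganglia (1.59), and Cspg4 passed as the median of its probe sets and without neurosphere 1. Of the myelin genes, Mag was lower, with 2.04 and 11.1 in neurospheres, against 24.6 to 44.4 in ganglia (log2 fold change -1.14 ± 0.23, adjusted p = 8.0e-04). Mog, a myelin protein gene of mature oligodendrocytes, read at most 5.38 on all 6 arrays and was not tested.

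Of 18 astrocyte genes tested, 10 were higher and 3 lower, with a median of 1.20. Aldh1l1, a folate enzyme of astrocytes, read 341 and 497 in neurospheres, against 3.94 to 18.5 in ganglia (log2 fold change 3.92 ± 0.28, adjusted p = 3.4e-09). The glutamate transporter gene Slc1a2 read 189.7 and 184 in neurospheres, against 5.44, 2.32, 5.85 and 32.4 in ganglia (log2 fold change 2.998 ± 0.28, adjusted p = 1.3e-07). Fgfr3 had a log2 fold change of 4.34 (adjusted p = 1.9e-09). Gfap, the intermediate filament of mature astrocytes, read 29.4 and 4.36 in neurospheres, against 3.85 to 21.7 in ganglia, and did not pass (adjusted p = 0.63). Aqp4, the water channel of astrocyte end feet, read 832 and 49.95 in the neurospheres, against 8.88 to 25.2 in ganglia (log2 fold change 2.83 ± 0.58, adjusted p = 7.1e-04). The increase of Aqp4 was thus carried largely by neurosphere 1, and the median over the gene's probe sets did not pass.

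In the Notch pathway, 10 of 27 tested genes rose (37%) and 4 fell (14.8%), with a median of 0.67. Over all tested genes the shares were 16.8% and 22.4%. Hes5, a target by which Notch represses neuronal differentiation, read 2401 and 722 in neurospheres, against 15.9, 5.60, 19.4 and 12.9 in ganglia (log2 fold change 5.53 ± 0.36, adjusted p = 1.3e-09). Hes1, the other well-known Hes target, read 27.3 and 220.3 in neurospheres, against 68.0, 90.5, 25.9 and 20.0003 in ganglia, and did not pass (adjusted p = 0.24), but did without neurosphere 1. The ligand gene Dll1 read 494 and 123 in neurospheres, against 20.8 to 34.6 in ganglia (log2 fold change 2.70 ± 0.33, adjusted p = 3.5e-06). The ligand gene Jag1 had a log2 fold change of 1.67 and the receptor gene Notch1 one of 1.52 (adjusted p = 0.0038 and 0.0013). With only these 6 arrays, Jag1, Notch1 and Hey2 (below) did not pass. Without neurosphere 2, Jag1 no longer passed. Hey2, a Notch target of vessels and glia, was lower, with 142 and 6.58 in neurospheres, against 149 to 303 in ganglia (log2 fold change -2.01 ± 0.48, adjusted p = 0.0025); it did not pass without neurosphere 2.

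The promoter of Hes5 is shown because Hes5 had the largest change of the list and holds a GTGGGAA sequence, the letters to which the Notch effector RBPJ binds, on each strand. It is the RefSeq window of 250 bases before and 50 after the gene's start (GRCm38.p6, chr4:154960673-154960972, plus strand), with both matches in capitals.
Hes5: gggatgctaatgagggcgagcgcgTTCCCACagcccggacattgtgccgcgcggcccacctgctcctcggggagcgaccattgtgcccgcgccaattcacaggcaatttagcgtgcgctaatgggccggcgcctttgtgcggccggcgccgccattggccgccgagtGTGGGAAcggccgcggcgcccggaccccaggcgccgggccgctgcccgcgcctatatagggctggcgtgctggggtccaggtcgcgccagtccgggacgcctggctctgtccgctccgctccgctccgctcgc
Both strands of all promoter windows were searched. GTGGGAA was present in 3 of the 24 Notch list genes that have a window, and in 7.25% of all 27025 genes with a window. A match is a description of the letters and not evidence of binding.

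The growth factor feedback list holds genes of EGF and FGF receptor signalling, such as receptors and targets, and genes that restrain it. Of 22 tested, 13 rose and 0 fell, with a median of 1.28. Ccnd2, the cyclin of neural progenitors, read 1568 and 3215 in neurospheres, against 175, 137, 82.4 and 93.6 in ganglia (log2 fold change 4.09 ± 0.40, adjusted p = 2.3e-07). Etv5, an ETS factor downstream of FGF, read 265 and 1259 in neurospheres, against 58.9 to 141 in ganglia (log2 fold change 2.36 ± 0.42, adjusted p = 2.3e-04). The receptor gene Fgfr2 read 1101 and 256 in neurospheres, against 17.6 to 39.1 in ganglia (log2 fold change 3.54 ± 0.35, adjusted p = 2.7e-07); its other 2 probe sets read at most 25.9 on all 6 arrays, and the median over the 3 did not pass. Dusp6, a phosphatase that ends ERK signalling, read 306 and 2287 in neurospheres, against 176, 158, 692 and 772 in ganglia, and did not pass (adjusted p = 0.15). Neurosphere 1 was below ganglia 3 and 4 for Dusp6 and neurosphere 2 above every ganglion; without neurosphere 1 it passed.

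Cell cycle genes rose almost as a group. Of 61 tested, 52 were higher in neurospheres and 1 lower, with a median of 2.05. Mki67, the proliferation antigen, read 2836 and 1969 in neurospheres, against 130.1, 472, 181 and 335 in ganglia (log2 fold change 3.17 ± 0.33, adjusted p = 5.1e-07). Cdc20, the activator of the anaphase-promoting complex, read 1362 and 1893 in neurospheres, against 139.9, 171, 85.2 and 68.7 in ganglia (log2 fold change 3.69 ± 0.26, adjusted p = 3.4e-09). Top2a and Cdk1, a topoisomerase and the mitotic kinase, had log2 fold changes of 3.01 and 2.40 (adjusted p = 2.9e-07 and 4.7e-05). Within the ganglia, number 2 was the highest for all 4 genes named here. The member that fell was Ccne1, the gene of cyclin E1, at -0.73 (adjusted p = 0.012), and it was named after its value was seen. Its call was lost with only these 6 arrays, with array weights, at a 2-fold threshold and with other choices of probe set.

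The promoter of Cdc20 is shown as an example of the cell cycle genes homology region, TTTGAA, an element known from promoters of mitotic genes (GRCm38.p6, chr4:118437294-118437593, minus strand, match in capitals).
Cdc20: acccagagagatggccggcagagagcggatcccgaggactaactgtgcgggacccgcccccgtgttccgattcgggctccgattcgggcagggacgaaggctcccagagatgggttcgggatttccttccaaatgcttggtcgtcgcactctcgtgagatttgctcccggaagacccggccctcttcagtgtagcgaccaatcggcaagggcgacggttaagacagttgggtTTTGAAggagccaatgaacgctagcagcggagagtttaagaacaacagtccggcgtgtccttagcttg
TTTGAA was found on either strand in 25 of the 51 cell cycle genes that have a window (49%). It was present in 20.2% of all genes with a window and in 14.6% of the tested ones.

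Genes that mark position along the body axis separated the groups in both directions. Of 22 forebrain and midbrain genes tested, 13 were higher in neurospheres and 1 was lower, with a median of 0.91. Lhx2, a selector of the forebrain, read 135 and 93.6 in neurospheres, against 1.11, 0.737, 0.56 and 1.79 in ganglia (log2 fold change 2.92 ± 0.16, adjusted p = 1.4e-10). Otx2, a factor of forebrain and midbrain, read 60.4 and 53.8 in neurospheres, against 0.325 to 1.19 in ganglia (log2 fold change 2.13 ± 0.16, adjusted p = 6.4e-09). Nr2f1, a nuclear receptor that patterns the cortex, read 1088 and 1015 in neurospheres, against 86.2 to 142 in ganglia (log2 fold change 3.14 ± 0.45, adjusted p = 2.2e-05). Emx2 and Sp8 had log2 fold changes of 2.72 and 2.52 (adjusted p = 2.0e-05 and 1.3e-08). Dlx2, a factor of ventral forebrain, did not pass (adjusted p = 0.061), and the member that fell was Nr2f2, at -1.34 (adjusted p = 0.0053), chosen after its value was seen. The Nr2f2 call was lost without neurosphere 1, with ganglia 3 and 4 alone and with only these 6 arrays, and Dlx2 passed without neurosphere 2 or ganglion 4.

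No tested Hox gene was higher in neurospheres. Hox genes mark hindbrain and trunk positions and are silent in forebrain. Of 35 listed, 19 were tested, of which 10 fell, with a median of -0.63. Hoxc8 read 5.34 and 2.30 in neurospheres, against 436, 286, 622 and 438 in ganglia (log2 fold change -4.50 ± 0.53, adjusted p = 2.3e-06). Hoxc4 read 1.83 and 0.381 in neurospheres, against 187 to 360.2 in ganglia, and Hoxd8 read 1.45 and 0.484, against 59.7 to 195 (log2 fold changes -3.94 and -2.91, adjusted p = 1.4e-06 and 8.7e-06). Hoxa5 read 76.1 and 57.2 in neurospheres, against 209, 273, 262 and 159 in ganglia (log2 fold change -1.53 ± 0.26, adjusted p = 1.1e-04), by a probe set marked as cross-matching. Its other probe set read 10.4 and 7.82 in neurospheres, against 10.3 to 39.4 in ganglia, and with unmarked probe sets alone the call was lost. With neurosphere 1 against ganglia 3 and 4 alone, 5 of the 19 passed.

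The genes of tenascins, chondroitin sulfate proteoglycans and hyaluronan, which form the matrix around progenitors, rose in 12 of 22 tested and fell in 1, with a median of 1.32. Ncan read 1073 and 3273 in neurospheres, against 56.6, 37.8, 29.4 and 54.1 in ganglia (log2 fold change 4.99 ± 0.33, adjusted p = 1.5e-09). Tnc, tenascin-C of stem cell niches, read 761 and 2867 in neurospheres, against 96.5, 62.9, 79.8 and 81.5 in ganglia (log2 fold change 3.97 ± 0.38, adjusted p = 1.5e-07). Of the Sox family, 10 of 16 tested genes rose and 3 fell, with a median of 1.76. Sox11, a factor of immature neurons, read 1359 and 1053 in neurospheres, against 206, 136, 161 and 152 in ganglia (log2 fold change 2.77 ± 0.19, adjusted p = 2.9e-09). Both groups kept clear Sox11 signal, and the values did not overlap.

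Midkine and pleiotrophin are related heparin-binding growth factors, whose receptors include the phosphatase Ptprz1 and the kinase Alk. In this list, 6 of 21 tested genes rose (28.6%) and 5 fell (23.8%), against 16.8% and 22.4% of all tested genes. The share that fell was thus near that of all genes. Ptprz1 read 4876 and 3259 in neurospheres, against 302, 228, 583 and 499 in ganglia (log2 fold change 3.35 ± 0.33, adjusted p = 2.6e-07). Ptn, pleiotrophin, read 4233 and 3729.5 in neurospheres, against 678, 549, 2297 and 1974 in ganglia (log2 fold change 1.78 ± 0.46, adjusted p = 0.0047); it did not pass with only these 6 arrays. Vcan, the gene of versican, had a log2 fold change of 2.88 (adjusted p = 2.8e-05). Mdk itself read 53.6 and 33.0 in neurospheres, against 85.7, 97.7, 54.1 and 43.0 in ganglia, and did not pass (adjusted p = 0.17). Alk was low in both groups, with 1.06 and 9.49 in neurospheres, against 55.7, 24.5, 25.9 and 14.1 in ganglia (log2 fold change -1.07 ± 0.28, adjusted p = 0.0058). Its call was lost without neurosphere 1, with only these 6 arrays, with array weights and with a pseudocount of 64. Mycn, read by a probe set for the mouse gene, gave 256 and 299 in neurospheres, against 323, 236, 304 and 413 in ganglia, values that overlapped (log2 fold change -0.17 ± 0.34, adjusted p = 0.73).

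The noradrenergic list changed in every tested member: 18 of 20 were lower in neurospheres and 2 higher, with a median log2 fold change of -5.62. Th, the rate-limiting enzyme of catecholamine synthesis, read 14.1 and 9.72 in neurospheres, against 2165, 1472, 3193 and 2775 in ganglia (log2 fold change -6.38 ± 0.59, adjusted p = 1.0e-07). Dbh, which turns dopamine into noradrenaline, read 7.79 and 29.1 in neurospheres, against 2075, 1249, 2885 and 2621 in ganglia (log2 fold change -6.02 ± 0.38, adjusted p = 9.6e-10). The vesicle transporter gene Slc18a2 read 5.42 and 5.95 in neurospheres, against 1368, 993, 5212 and 3429.9 in ganglia (log2 fold change -6.69 ± 0.50, adjusted p = 7.8e-09). Of the factors that specify sympathetic neurons, Isl1 read 12.1 and 0.727 in neurospheres, against 1879, 1780.1, 2239 and 2973 in ganglia, and Hand2 read 8.03 and 5.73, against 1843, 1308, 2563 and 2338. Th, Dbh, Slc18a2, Isl1 and Hand2 were thus high on all 4 arrays labelled ganglion, as in sympathetic neurons. Phox2a had a log2 fold change of -3.69 (adjusted p = 4.0e-06). The 2 members that rose were Sox11, given above, and Insm1, a factor of neuroendocrine and neuronal progenitors, at 3.51 (adjusted p = 3.4e-09); Insm1 was named after its value was seen.

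The promoters of Th and Chgb are shown because both fell and both hold TGACGTCA, the cyclic AMP response element, once each (GRCm38.p6, chr7:142899946-142900245 on the minus strand for Th and chr2:132781392-132781691 on the plus strand for Chgb, element in capitals).
Th: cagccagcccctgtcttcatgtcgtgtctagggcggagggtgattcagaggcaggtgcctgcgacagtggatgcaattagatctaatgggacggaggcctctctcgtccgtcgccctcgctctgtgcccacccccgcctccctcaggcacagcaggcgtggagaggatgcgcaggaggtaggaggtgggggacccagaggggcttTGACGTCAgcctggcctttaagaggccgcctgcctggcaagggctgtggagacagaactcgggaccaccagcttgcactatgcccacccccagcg
Chgb: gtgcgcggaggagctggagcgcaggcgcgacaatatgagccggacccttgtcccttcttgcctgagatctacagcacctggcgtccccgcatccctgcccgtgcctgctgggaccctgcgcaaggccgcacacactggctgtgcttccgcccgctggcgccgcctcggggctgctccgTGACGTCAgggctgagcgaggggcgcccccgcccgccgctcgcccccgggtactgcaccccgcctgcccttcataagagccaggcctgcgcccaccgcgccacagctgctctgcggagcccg
The element, which reads the same on both strands, was found in 2 of the 13 noradrenergic genes and 5 of the 21 peptide and granin genes that have a window. It was present in 2.03% of all genes with a window and in 3.19% of the tested ones. Neither promoter, nor those of Hes5 and Cdc20, held either of the other motifs searched here.

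Peptide and granin genes, which fill dense-core vesicles, fell in 16 of 23 tested and rose in 0, with a median of -1.99. Chgb, chromogranin B, read 114 and 39.9 in neurospheres, against 1363, 1045, 1369.7 and 1317 in ganglia (log2 fold change -3.91 ± 0.40, adjusted p = 4.3e-07). Chga, chromogranin A, read 6.17 and 26.8 in neurospheres, against 129, 97.8, 109.6 and 140.4 in ganglia (log2 fold change -2.12 ± 0.37, adjusted p = 1.6e-04), and Scg2, secretogranin II, had a log2 fold change of -3.04 (adjusted p = 7.8e-07). Vip, a peptide of cholinergic autonomic neurons, read 10.8 and 5.47 in neurospheres, against 2478, 3015, 21.1 and 42.5 in ganglia (log2 fold change -3.90 ± 1.32, adjusted p = 0.025). Only ganglia 1 and 2 held much Vip signal, and it did not pass with ganglia 3 and 4 alone, nor without neurosphere 1, neurosphere 2, ganglion 1 or ganglion 2.

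Pan-neuronal genes were lower in neurospheres. Of the genes of the neuronal cytoskeleton and of neuronal RNA-binding proteins, 24 of 27 fell, with a median of -2.59, and of the vesicle release genes 20 of 26 fell, with a median of -2.32; none of either list rose. Stmn2, a microtubule regulator of axons, read 83.2 and 18.2 in neurospheres, against 3335, 3144, 6946 and 6059 in ganglia (log2 fold change -6.30 ± 0.39, adjusted p = 6.8e-10). Nefl and Tubb3, neurofilament light chain and neuronal tubulin, had log2 fold changes of -5.01 and -4.26 (adjusted p = 2.2e-09 and 3.5e-08). The neuronal RNA-binding gene Elavl4 read 566 and 297 in neurospheres, against 659, 467, 2434 and 1868 in ganglia (log2 fold change -1.38 ± 0.47, adjusted p = 0.026); the groups overlapped, and it did not pass without neurosphere 2, ganglion 3 or ganglion 4, nor with a replicate block (-0.94). Snap25, a SNARE protein of synaptic vesicles, read 237 and 54.3 in neurospheres, against 2214, 1618, 7160.1 and 5618 in ganglia (log2 fold change -4.71 ± 0.49, adjusted p = 4.3e-07). Syt1, the calcium sensor of release, had a log2 fold change of -5.36 (adjusted p = 5.3e-12).

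Of the voltage-gated and nicotinic channel genes, 22 of 30 fell and 4 rose, with a median of -1.91. Chrna3, the nicotinic receptor subunit of ganglionic transmission, read 2.19 and 2.71 in neurospheres, against 771, 601, 759 and 581 in ganglia (log2 fold change -5.22 ± 0.24, adjusted p = 1.9e-11). Scn9a, a sodium channel of peripheral neurons, read 0.422 and 1.36 in neurospheres, against 889.7, 769.6, 1051 and 732 in ganglia (log2 fold change -5.68 ± 0.34, adjusted p = 4.1e-10). Of the 4 that rose, the potassium channel gene Kcnd3, named after its value was seen, read 830.4 and 1022 in neurospheres, against 34.6 to 142 in ganglia (log2 fold change 3.32 ± 0.33, adjusted p = 2.4e-07).

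Of 19 tested genes of the neurotrophin and GDNF family, 6 were higher (31.6%) and 5 lower (26.3%), with a median of 0.20. Over all tested genes the shares were 16.8% and 22.4%, so the share that fell was near that of all genes. Ret, the GDNF family receptor of sympathetic neurons, read 0.9997 and 0.856 in neurospheres, against 1322, 964, 958 and 827 in ganglia (log2 fold change -5.91 ± 0.46, adjusted p = 1.1e-08). Ngfr, the p75 neurotrophin receptor of neural crest, Schwann cells and sympathetic neurons, read 1.77 and 7.12 in neurospheres, against 401, 285, 454 and 369 in ganglia (log2 fold change -4.26 ± 0.38, adjusted p = 6.6e-08). Ntrk2, the BDNF receptor of central neurons and astrocytes, read 1666 and 1119.9 in neurospheres, against 349, 401, 470.2 and 466 in ganglia (log2 fold change 1.67 ± 0.22, adjusted p = 7.8e-06).

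Glial genes of crest origin did not move together. Of the neural crest and Schwann precursor list, 10 of 19 fell (52.6%) and 4 rose (21.1%), with a median of -0.82. Over all tested genes, 22.4% fell and 16.8% rose. Zic1, given above and also on the forebrain and midbrain list, was among the 4 that rose. Sox10, a factor of both crest glia and the oligodendrocyte lineage, read 312 and 133 in neurospheres, against 304, 159.9, 200.2 and 220.0 in ganglia, and did not pass (log2 fold change -0.06 ± 0.37, adjusted p = 0.91). Erbb3, the neuregulin receptor of Schwann precursors, read 34.3 and 14.9 in neurospheres, against 387, 233, 404 and 371 in ganglia (log2 fold change -3.18 ± 0.36, adjusted p = 1.2e-06). Foxd3 and Tfap2b, crest and sympathetic factors, had log2 fold changes of -2.01 and -5.46 (adjusted p = 1.5e-05 and 8.3e-13). Among 21 tested genes of Schwann cells and satellite glia, 11 fell (52.4%) and 3 rose (14.3%, under the 16.8% of all tested genes). Egr2 of this list, named after its values were seen, was higher. It read 282 and 140 in neurospheres, against 13.9 to 39.9 in ganglia (log2 fold change 2.45). The myelin gene Mal read 2.52 and 3.18 in neurospheres, against 449.8 to 791 in ganglia (log2 fold change -5.05 ± 0.30, adjusted p = 4.2e-10). The myelin gene Pmp22 kept more signal, with 278 and 576 in neurospheres, against 2468 to 3779 in ganglia (log2 fold change -2.87 ± 0.28, adjusted p = 2.5e-07). Scn7a and Cdh19, a sodium channel and a cadherin of peripheral glia, had log2 fold changes of -5.05 and -3.80 (adjusted p = 1.7e-07 and 3.8e-06).

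Markers of the other cell types a ganglion holds were lower in neurospheres. Of fibroblast and matrix genes, 25 of 32 fell and 2 rose, with a median of -2.99, and their summed intensity was 3047 and 2964 in neurospheres and 27439 to 39357 in ganglia. Col3a1, a fibrillar collagen, read 245 and 12.5 in neurospheres, against 4215, 5123, 7434 and 6467 in ganglia (log2 fold change -6.05 ± 0.54, adjusted p = 6.8e-08), and neurosphere 1 kept a part of the signal. The proteoglycan genes Dcn and Lum had log2 fold changes of -6.43 and -6.17 (adjusted p = 1.2e-06 and 3.5e-07).

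Of endothelial and mural genes, 19 of 28 fell and 1 rose, with summed intensities of 766 and 395 in neurospheres and 1530.2 to 4136 in ganglia. Cdh5, endothelial cadherin, and Rgs5, of pericytes, had log2 fold changes of -1.85 and -3.42 (adjusted p = 1.7e-04 and 2.7e-06), while Pecam1 was near or under the 40th percentile on all 6 arrays and did not pass. Macrophage and leukocyte genes fell in 22 of 26 tested, with sums of 330.4 and 209 in neurospheres and 2313 to 4206 in ganglia. Csf1r, the macrophage growth factor receptor, read 35.8 and 13.6 in neurospheres, against 1139, 1061, 442 and 469 in ganglia (log2 fold change -4.21 ± 0.44, adjusted p = 4.7e-07). Ptprc, the pan-leukocyte gene, had -2.71 (adjusted p = 1.0e-04; lost with probe sets of no cross-matching mark alone), whereas Cd68 read 24.0 and 22.3 in neurospheres, against 11.2 to 27.6 in ganglia, and did not pass (adjusted p = 0.7). The T cell gene Cd3e was not tested. Antigen presentation genes fell in 20 of 23: the class II gene H2-Aa read 3.45 and 4.08 in neurospheres, against 1367, 1010.3, 589 and 761 in ganglia (log2 fold change -5.52 ± 0.32, adjusted p = 3.4e-10), and the class I subunit B2m had the smaller change of -0.93 (adjusted p = 0.0085), lost without neurosphere 2, with array weights and at a 2-fold threshold.

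Genes of adipocytes, muscle, liver and red cells summed to 7339 and 256 in neurospheres, and to 17082, 19352, 4022 and 10549.6 in ganglia 1 to 4. Ttr, transthyretin of liver and choroid plexus, made up most of the sum on neurosphere 1, with 7007 and 4.27 in neurospheres, against 2261, 712, 77.6 and 55.3 in ganglia. Of 22 tested, 10 fell and none rose; with ganglia 1 and 2 alone 18 fell. Acta1, skeletal muscle actin, read 0.945 and 18.1 in neurospheres, against 1042, 529, 16.02 and 7.10 in ganglia, and passed only with ganglia 1 and 2 alone (adjusted p = 0.29 with all 4). Alb, albumin, read 12.1 and 6.46 in neurospheres, against 1588, 393, 25.4 and 12.3 in ganglia (log2 fold change -2.73 ± 0.997, adjusted p = 0.037), and lost its call without neurosphere 1, neurosphere 2, ganglion 1 or ganglion 2 and with ganglia 3 and 4 alone. Of 13 tested chromaffin and adrenal cortex genes, 1 rose (7.69%) and 5 fell (38.5%), against 16.8% and 22.4% of all tested genes. Their intensities summed to 1648 and 1645 in neurospheres and to 1644 to 3155 in ganglia. The larger part of these sums on every array came from Fdx1 and Scarb1, a ferredoxin and a lipoprotein receptor that many other tissues express. Scarb1, the member that rose, read 652 and 865 in neurospheres, against 197, 173, 117 and 265 in ganglia (log2 fold change 1.96 ± 0.26, adjusted p = 6.8e-06). Pnmt, the adrenaline-forming enzyme of chromaffin cells, read 11.1 and 5.52 in neurospheres, against 46.0, 61.0, 33.6 and 55.5 in ganglia (log2 fold change -1.41 ± 0.28, adjusted p = 5.7e-04), and 0.038 as the median of its probe sets. The steroid enzyme gene Cyp11a1 read 25.4 and 4.02 in neurospheres, against 7.36 to 17.5 in ganglia (adjusted p = 0.78). The part of these transcripts in other results was not tested.

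**Figure D2:**
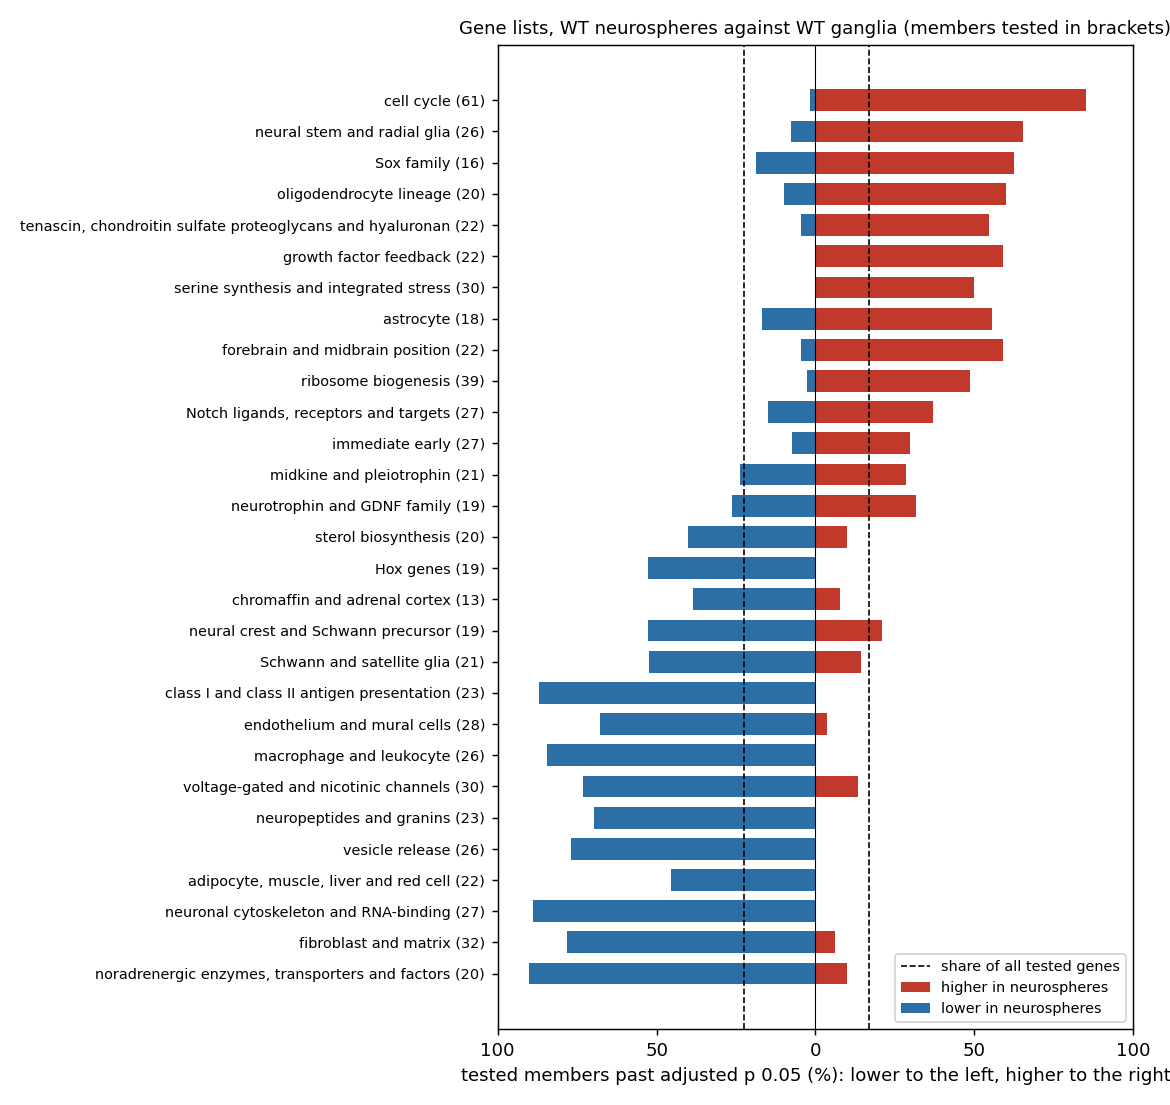
Share of the tested members of each of 29 gene lists that were higher (red, to the right) or lower (blue, to the left) in WT neurospheres than in WT ganglia at an adjusted p under 0.05, ordered by the median log2 fold change, with the number tested in brackets. Dashed lines mark the shares over all tested genes (16.8% higher and 22.4% lower); cell cycle genes stand at the top and noradrenergic genes at the bottom.

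Serine synthesis and integrated stress genes, which supply amino acids and respond to their lack, rose in 15 of 30 tested and fell in 0, with a median of 1.24. Psat1, of serine synthesis, read 2514 and 2922 in neurospheres, against 401, 310.1, 417 and 323 in ganglia (log2 fold change 2.86 ± 0.18, adjusted p = 9.3e-10). Aldh1l2, a mitochondrial folate enzyme, read 699 and 1578 in neurospheres, against 29.6, 42.0, 50.7 and 41.1 in ganglia (log2 fold change 4.24 ± 0.26, adjusted p = 5.8e-10). For both genes the 2 neurospheres stood clear of all ganglia. Phgdh, the entry enzyme of serine synthesis, read 334 and 1568 in neurospheres, against 663, 577, 162 and 109 in ganglia, and did not pass (adjusted p = 0.11). This depended on the probe set: 3 others gave log2 fold changes of 3.32, 3.02 and 2.08, the first with 1272 and 3277 in neurospheres, against 143 to 278 in ganglia, and the median over the probe sets passed. Asns, asparagine synthetase, read 686 and 3349 in neurospheres, against 948, 914, 656 and 761 in ganglia, and did not pass either (adjusted p = 0.078). Its second probe set gave 1.42, with 569 and 3244 in neurospheres, against 452 to 528 in ganglia, and the median over both passed.

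The list split the neurospheres. Its median stood 0.10 above the ganglion mean on neurosphere 1 and 2.38 above it on neurosphere 2, and 28 of 30 members were higher on neurosphere 2. Without neurosphere 1, 28 members rose, and Phgdh, Asns, Trib3, Eif4ebp1 and Ddit3 each passed. Trib3, a pseudokinase gene induced by the stress factor ATF4, read 1.74 and 1024 in neurospheres, against 36.1, 43.4, 8.73 and 4.47 in ganglia (adjusted p = 0.11). Cth, which makes cysteine, read 91.0 and 1559 in neurospheres, against 18.4 to 24.6 in ganglia (log2 fold change 3.47 ± 0.60, adjusted p = 1.5e-04). Neurosphere 2 was above every ganglion for Trib3, and both neurospheres were for Cth. Eif4ebp1, a repressor of translation, read 76.3 and 1373 in neurospheres, against 41.2 to 650.1 in ganglia, and did not pass. Ddit3, the stress factor CHOP, read 26.4 and 319 in neurospheres, against 24.3 to 88.5 in ganglia, and did not pass either.

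Ribosome biogenesis genes behaved alike: 19 of 39 rose (48.7%) and 1 fell (2.56%), and 37 of 39 were higher on neurosphere 2. Their median stood 0.26 above the ganglion mean on neurosphere 1 and 1.25 above it on neurosphere 2. Against ganglia 3 and 4 alone, the median on neurosphere 1 was 0.49. The count also depended on the ganglia: 12 rose with ganglia 1 and 2 alone, and 26 with ganglia 3 and 4 alone. Fbl, the nucleolar methyltransferase fibrillarin, read 264 and 899 in neurospheres, against 189, 218, 52.2 and 73.5 in ganglia (log2 fold change 1.95 ± 0.43, adjusted p = 0.0013), and did not pass without neurosphere 2. Ddx21, a nucleolar helicase, had a log2 fold change of 2.06 (adjusted p = 2.3e-06). Immediate early genes respond within minutes to growth factors or handling. Of 27 tested, 8 rose (29.6%) and 2 fell (7.41%), against 16.8% and 22.4% of all tested genes. Egr1 read 449 and 947 in neurospheres, against 233, 315, 188 and 135 in ganglia (log2 fold change 1.58 ± 0.36, adjusted p = 0.0017), a call lost without neurosphere 2 and with array weights. Fos read 1467 and 675 in neurospheres, against 244, 154, 731 and 765 in ganglia, and did not pass (adjusted p = 0.094), but did without ganglion 3 or ganglion 4. Sterol synthesis genes fell in 8 of 20 tested (40%) and rose in 2 (10%), against 22.4% and 16.8% of all tested genes. Fdft1, squalene synthase, had a log2 fold change of -1.42 and Dhcr7, the last enzyme of cholesterol synthesis, one of 2.03 (adjusted p = 1.9e-05 and 3.5e-05). Without neurosphere 2, 3 sterol genes rose and 2 fell.

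Other genes also differed between the neurospheres. Of the 191 genes over 4-fold apart, 66 were higher on neurosphere 1 and 125 on neurosphere 2. For Ttr, whose values are given above, the neurospheres lay on either side of all 4 ganglia. Id4, an inhibitor of bHLH factors in progenitors, read 1851 and 132 in neurospheres, against 113, 141, 347 and 307 in ganglia. Ttr, Id4, Eif4ebp1 and Ddit3 were chosen after their values were seen. None of the 4 passed (adjusted p = 0.93, 0.13, 0.3 and 0.24); without neurosphere 2, Ttr and Id4 did.

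**Figure D3:**
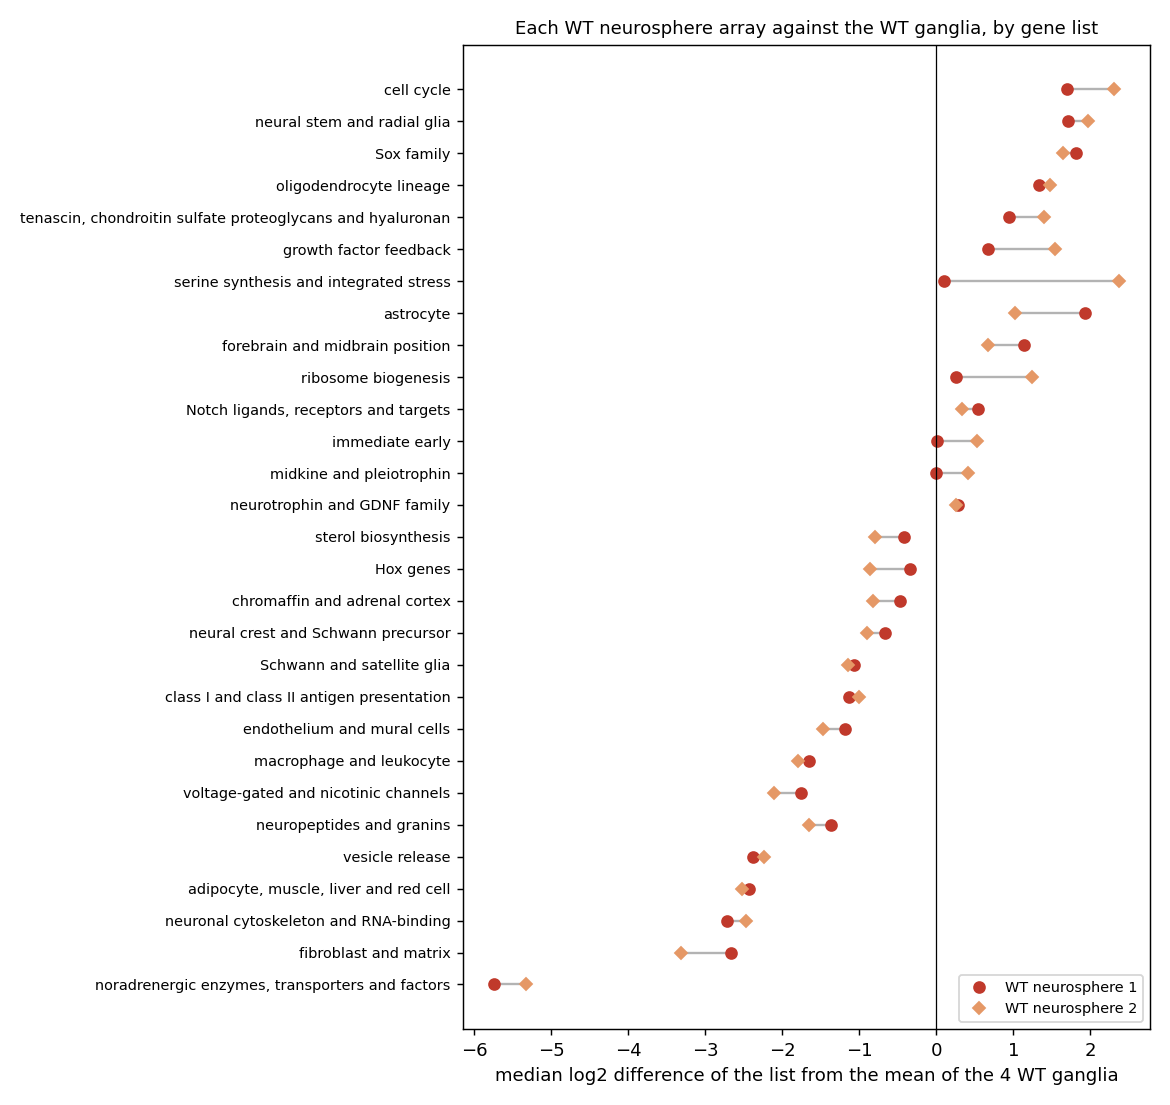
Median log2 difference of each gene list from the mean of the 4 WT ganglia, on WT neurosphere 1 (circles) and WT neurosphere 2 (diamonds), over the members tested and with lists in the order of their median. The arrays lie close for most lists and farthest apart for serine synthesis and integrated stress, at 0.10 and 2.38.

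A sphere culture and a tissue were also measured from mice hemizygous for the transgene, on arrays that are not shared with the wild-type pair. In tumorspheres, 849 genes were higher than in hemizygous tumors (5.61%) and 1058 were lower (6.99%), or 1132 and 828 after median centring. The total of 1907 was 709 without tumorsphere 1 and 742 without tumorsphere 2. Of the 3394 genes lower in WT neurospheres, 414 were also lower in tumorspheres (12.2% of the 3394 and 39.1% of the 1058) and 396 were higher in them (11.7% of the 3394 and 46.6% of the 849). Of the 2540 genes higher in WT neurospheres, 76 were also higher in tumorspheres (2.99% of the 2540 and 8.95% of the 849), and 242 were lower there (9.53% of the 2540 and 22.9% of the 1058). In the test of the difference itself, 4924 genes passed (32.5%), of which 2223 had the larger sphere-minus-tissue value in the wild-type pair and 2701 in the hemizygous pair.

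Of the 6 largest differences towards the hemizygous pair, 4 were in Th, Ret, Npy and Ddc, which noradrenergic neurons express. Th read 3097 and 3328 in tumorspheres, against 171, 213, 717 and 1770.5 in hemizygous tumors, a log2 fold change of 2.73, and its difference between the pairs was -9.11 ± 0.83, adjusted p = 2.2e-07. Ret read 444 and 1017 in tumorspheres, against 38.0, 83.3, 21.0 and 173 in tumors, with a difference of -9.05 ± 0.65, adjusted p = 1.1e-08. Ddc read 3345 and 2598 in tumorspheres, against 2699 to 3384 in tumors, values that overlapped, with a difference of -7.77 ± 0.36, adjusted p = 9.6e-11. Npy was low in both hemizygous groups, with 119 and 59.5 in tumorspheres and 13.8 to 192 in tumors, with no passing change between them, and its difference between the pairs was -7.97. Prkar1b, a regulatory subunit of protein kinase A, and Fkbp1b, a channel-binding immunophilin, rose in tumorspheres (2.61 and 2.35) and fell in WT neurospheres (-5.13 and -5.37). Isl1 read 2364 and 2460.4 in tumorspheres, against 1659 to 2639 in tumors, and Hand2 read 1216 and 1332, against 1173 to 1285; neither passed between tumorspheres and tumors, and both passed in the test of the difference (-6.91 and -6.48). Mycn read 351 and 583 in tumorspheres, against 15.7, 19.1, 43.9 and 77.7 in tumors, with a difference of -3.40 ± 0.48, adjusted p = 3.0e-05.

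The largest differences towards the wild-type pair were in Vcam1, Slc1a3, Igfbp3, Pla2g7, Olig1 and Gja1. Vcam1, an adhesion molecule of stromal cells and neural stem cells, read 860.3 and 388 in WT neurospheres, against 136 to 161 in WT ganglia, and 0.828 and 0.298 in tumorspheres, against 864, 1133, 319 and 784 in tumors (7.34 ± 0.50, adjusted p = 5.4e-09); its increase in WT neurospheres did not pass as the median of its probe sets. Gja1, the gap junction protein connexin 43, read 4095 and 1503 in WT neurospheres, against 342 to 1312 in WT ganglia, and 2.67 and 0.27 in tumorspheres, against 288 to 514 in tumors (6.46 ± 0.60, adjusted p = 2.5e-07); its increase in WT neurospheres did not pass without neurosphere 1. Igfbp3, an IGF-binding protein, and Pla2g7, a phospholipase, likewise rose in WT neurospheres and fell in tumorspheres (log2 fold changes 3.25 and 4.52, against -3.76 and -2.45). Slc1a3 and Olig1 read under 20 on all 6 hemizygous arrays, and Sox2 read 1.13 and 4.81 in tumorspheres and 0.064 to 5.72 in tumors. Fibroblast and matrix genes fell in both cultures, in 25 of 32 tested in WT neurospheres and in 22 of 32 in tumorspheres; for Col3a1 the difference between the pairs was 0.38 ± 0.76, adjusted p = 0.74. Cell cycle genes rose in 52 of 61 in WT neurospheres. In tumorspheres none of the 61 rose and 5 fell, where 6.99% of all tested genes fell. Mki67 read 2029.7 and 1854 in tumorspheres, against 2101 to 2630.5 in tumors. The difference between the pairs passed for 53 of the 61, with 52 larger in the wild-type pair.

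**Figure D4:**
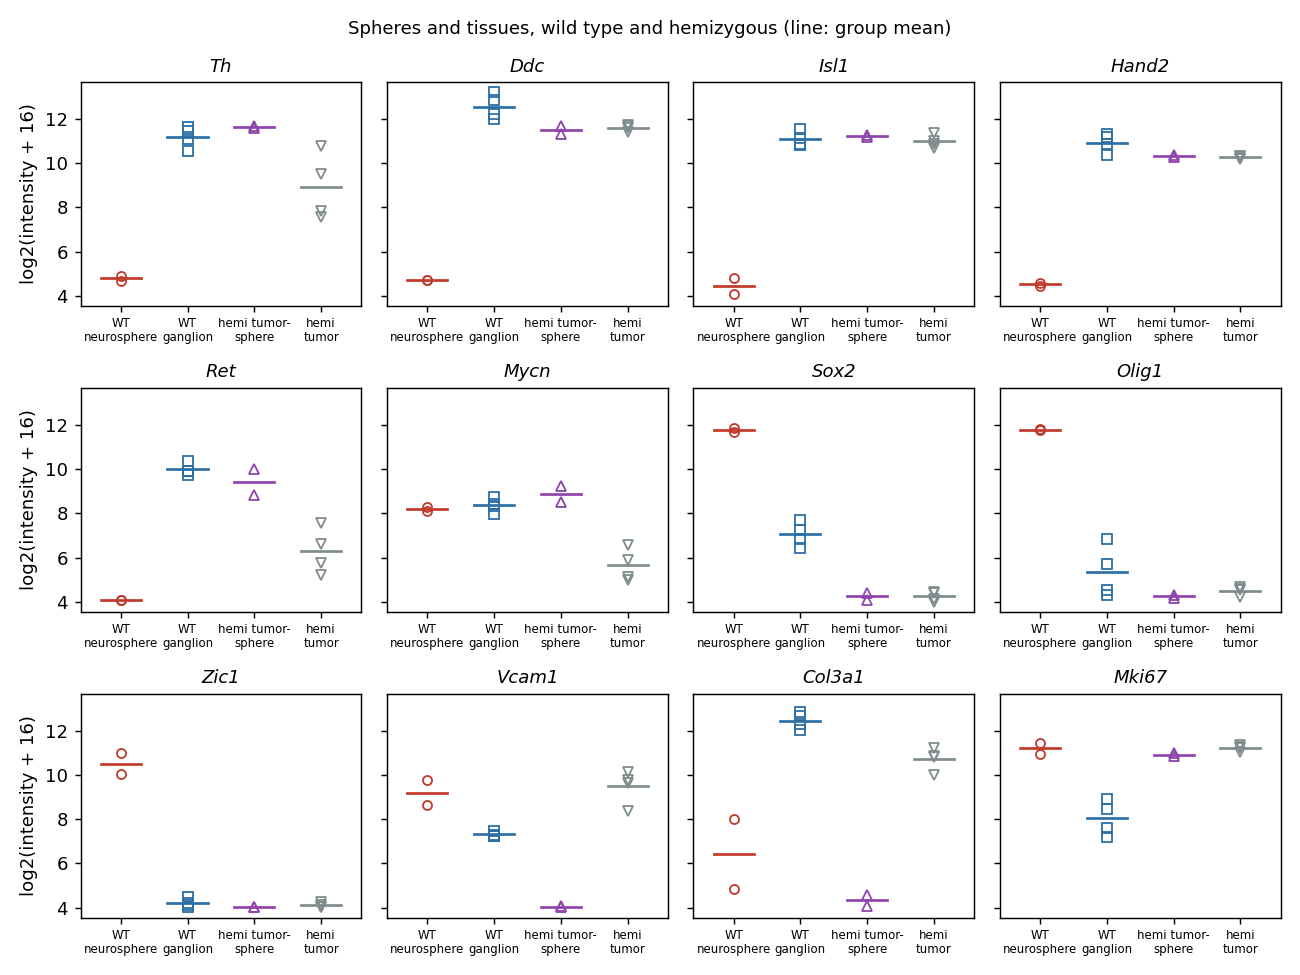
Log2(intensity + 16) of 12 genes in WT neurospheres, WT ganglia, hemizygous tumorspheres and hemizygous tumors (left to right in each panel), 1 symbol per array with the group mean as a line. Th, Ddc, Isl1, Hand2 and Ret are lowest in WT neurospheres, Sox2, Olig1 and Zic1 are highest in WT neurospheres, and Col3a1 is lower in each sphere culture than in its tissue.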

How the data were processed

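RNA of 20 mouse samples was measured with 1 array each, and 6 of them form the main comparison. Per the labels' protocols, frozen material was extracted, and 40 ng of total RNA was amplified in 2 cycles and labelled with biotin. The deposited intensity values are linear, and the authors had scaled them, since the 2% trimmed mean of each array is 100; the sources used here do not give the summary software. Here 64 control probe sets were left out, and log2(intensity + 16) was taken of the rest without further normalization. The platform annotation gave 1 symbol to 34945 of 45037 probe sets, several to 932 and none to 9160. Of these 34945, 34741 took their symbol from a RefSeq gene table (GRCm38.p6) and 204 kept the annotation's. For each of 18193 genes, the probe set of highest mean log2 value across all 20 arrays was used. Tested were 15132 genes above the 40th percentile of their array on at least 2 arrays. In every list, genes low on all other arrays were thus tested only where both neurosphere arrays were above that level.

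One model with 7 group means was fitted to all 20 arrays with limma's lmFit and eBayes (limma version 3.58.1, R version 4.3.3; 13 residual degrees of freedom), with two-sided contrasts, Benjamini-Hochberg adjustment and a threshold of 0.05. The number of arrays limits the precision. The steps were tested on simulated data. Members and gene lists were chosen with earlier results of these data known, so list counts and medians stand beside those of all genes, with no test of a list. Named were the 12 highest and 12 lowest genes whose groups did not overlap (clone names, Xist, Tsix and Y-linked genes aside). The 6 highest and 6 lowest of the difference between the pairs were named too, as were Mdk and Mycn. From each list came its defining members and its 6 largest passing changes. The text gives part of these genes and says where a gene was chosen after its values were seen. Promoter sequences are RefSeq's (GRCm38.p6). Alternatives covered normalization, pseudocount, filter, probe set choice, threshold, array weights, the arrays used and left-out replicates; a block for arrays with a highest intensity over 10000 and the comparisons of matching arrays were added after seeing the data.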

Additional observations from a re-analysis of the deposited data

Results flagged for a closer look

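For 10 of the 142 genes examined, 1 of the 4 WT ganglia lay far from the other 3, by a gap that takes up most of the whole range; chance flags about 1 in 20 groups. The gap was 0.94 of the range for Rfx4, 0.87 for Nes, Egfr and Adipoq, 0.88 for Slc1a2, 0.85 for Mog and Sp8, 0.84 for Cspg4 and Chgb, and 0.83 for Pecam1. For Rfx4, Mog, Sp8 and Pecam1 all 4 ganglion values lie under the 40th percentile of their arrays, where values have no order. Ganglion 2 was the high one for Adipoq (6.53 and 5.75 in neurospheres, against 423, 2901, 53.6 and 189.6 in ganglia). For Slc1a2 it was ganglion 4, with all ganglia still under both neurospheres.

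The sphere-minus-tissue change differed between the wild-type and the hemizygous pair, by a test of the difference, most for the 12 genes chosen by size. The log2 difference was 7.34 for Vcam1, 7.05 for Slc1a3, 7.01 for Igfbp3, 6.97 for Pla2g7, 6.70 for Olig1 and 6.46 for Gja1. In the other direction it was -9.11 for Th, -9.05 for Ret, -7.97 for Npy, -7.77 for Ddc, -7.74 for Prkar1b and -7.72 for Fkbp1b.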

How the results depend on the processing

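The count of 5934 genes in the main comparison stayed within 1.5 times under every alternative but 3: it was 2813 with only these 6 arrays, 3836 at a 2-fold threshold and 3311 with limma array weights, whose estimation stopped before it converged. It ranged from 4438 to 6208 with 1 replicate left out, was 7239 with ganglia 1 and 2 alone and 6372 with 3 and 4 alone, and was 7173 with a block for the arrays over 10000, an alternative chosen after seeing the data. The 455 list members called were 315 to 499 under all alternatives. The 4924 genes of the difference between the pairs were 3600 to 6524. For tumorspheres against tumors, 1907 became 1189 at a 2-fold threshold, 5124 with array weights, 2980 with the block for arrays over 10000, and 709 to 2028 with 1 replicate left out (709 and 742 without tumorsphere 1 or 2). Replicate numbers are shared by the labels of both groups but not said to pair them: with a replicate block the count was 5777, and neurosphere 1 deviated from its group mean against ganglia 1 and 2 (r = -0.32 and -0.28) and with ganglia 3 and 4 (r = 0.30 and 0.29). Of 3175 values of named genes under 23 alternatives, 75 lost the call, 53 gained it and 4 reversed. Ttr ranged from -3.99985 to 4.44 with 1 replicate left out (without neurosphere 1 and without neurosphere 2) and was -5.99 for neurosphere 2 against ganglia 1 and 2. Dusp6 was -1.21 for neurosphere 1 against ganglia 3 and 4, and Pnmt 0.038 as the median of its probe sets. The causes of these changes were not tested.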
